A study of Mus musculus with 6 samples.

Results

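Leydig cells are the steroid-producing cells between the seminiferous tubules of the testis. The luteinizing hormone of the pituitary binds its receptor (Lhcgr) on these cells and raises cyclic AMP, and the protein Star then moves cholesterol into mitochondria. There Cyp11a1 cuts the cholesterol side chain to give pregnenolone, which 3-beta-hydroxysteroid dehydrogenases (Hsd3b1, Hsd3b6), Cyp17a1 and Hsd17b3 turn into testosterone. Nr5a1 codes for the nuclear receptor SF-1, which drives transcription of many of these genes. Leydig cells also secrete the peptide hormone Insl3, which acts in descent of the testis, and Ptgds codes for a lipocalin-type prostaglandin D synthase.

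These 10 genes were followed in whole testes of 3 Prss37KO mice and 3 WT mice. Prss37 codes for a testis protein of the trypsin family. The animals were males of 6 to 8 weeks on a C57BL/6 background, and n counts mice in the design text of the series, so an array stood for 1 animal. Total RNA had been labelled with Cy3 and hybridised to 1-colour Agilent mouse arrays of 60-base features. Title and source of the knockout samples name Prss37 while their description field names Prss55, and samples were grouped by title.

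The genes were chosen by name: a feature belonged to a gene when the gene name on the array, or its synonym, was one of the 10. Of the 10 genes, 9 had a feature under their own name, 13 features in all. All 9 genes were among the 18975 genes tested over the whole array. Of the 13 features, 12 were well above background on all 6 arrays. No feature was named Insl3, which was measured only through 2 features named Jak3 that list the accessions of both genes. Signals below are the scanner's background-corrected intensities before scaling between arrays, and differences are log2 differences (Prss37KO minus WT) after each array was scaled to its 75th percentile. A level of one feature cannot be set against that of another as an amount of RNA. Sums over features and shares of such sums, given below, therefore describe signal only.

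Across all genes tested, 230 were higher and 237 lower at an adjusted p under 0.05 (limma with Benjamini-Hochberg adjustment), and the median difference was -0.002. The feature for Prss37 itself read 69429, 70753 and 70250 in the knockouts, against 116042, 105833 and 131284 in WT. Its log2 difference was -0.71 (SE 0.07, adjusted p = 0.024). The sources used here do not give the deleted part of Prss37, so this feature does not check the labels. Arrays of replicates 1 and 2 lay on slide 1 for both genotypes and those of replicate 3 on slide 2, so differences within each slide are given as well.

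Of the 9 genes, Ptgds rose in the knockout testes, none fell at the threshold, and the steroidogenic enzymes and Star did not pass it in either direction. At an unadjusted p under 0.05, 2 of the 9 genes passed (Ptgds and Cyp11a1). The share of all tested genes at that unadjusted threshold is not given here, so this count cannot be read as an excess. At an adjusted p under 0.05, the share of all tested genes called in either direction was 2.46%, and the share called higher was 1.21%. Differences were above 0 for 5 genes and below 0 for 4, with a median of 0.02 that ran from -0.06 to 0.08 over other settings. The 2 genotypes did not overlap for 2 of the 9 genes (Ptgds and Nr5a1), against 31.6% of all tested genes. In whole tissue, fewer Leydig cells and less RNA per cell cannot be told apart.

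**Figure D1:**
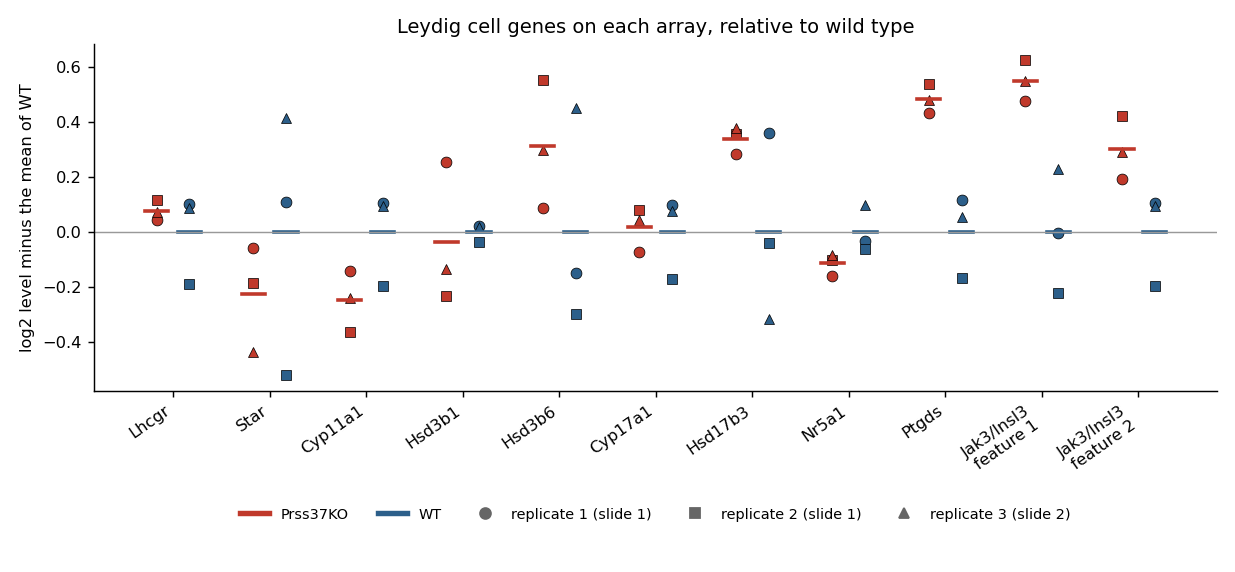
Scaled log2 level of each gene on each of the 6 arrays minus the mean of the WT arrays (y axis), with Prss37KO left of WT, marker shapes for replicate and slide, and bars for group means. Ptgds and both features that list Jak3 and Insl3 lay above every WT array on all 3 knockout arrays, while Star, Hsd3b6 and Hsd17b3 spread widely within a genotype.

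Lhcgr, the receptor through which luteinizing hormone acts, was measured near the low end of the array by 1 feature (mm9, chr17:89141300-89141359, minus strand). It read 106, 104 and 104 in the knockouts, against 108, 86.2 and 112 in WT. The knockout signals lay inside the WT range before scaling, while after scaling knockout replicate 2 lay just above every WT array. WT replicate 2 was the lowest of the 6 arrays on both scales. The difference was 0.08 (95% interval -0.13 to 0.29, adjusted p = 0.64 in limma), and it was -0.02 without WT replicate 2.

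Star, whose protein brings cholesterol to the inner mitochondrial membrane, was the most variable of the 9 genes. Its brighter feature (chr8:26924735-26924794, plus strand) read 3790, 3237 and 2781 in the knockouts, against 4136, 2627 and 5401 in WT. The highest and the lowest arrays were both WT, so the knockouts fell inside the WT range. The difference was -0.23 (95% interval -0.82 to 0.37, adjusted p = 0.62 in limma). It was 0.08 on slide 1 and -0.85 on slide 2, where only WT replicate 3 and knockout replicate 3 enter. The other Star feature (chr8:26925460-26925519, plus strand) read 1274, 1041 and 898 in the knockouts, against 1481, 883 and 2012 in WT, with a difference of -0.35. Both features thus ordered the WT arrays alike, with replicate 3 highest and replicate 2 lowest. Without WT replicate 2 the difference of the brighter feature was -0.49, and without WT replicate 3 it was -0.02.

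Cyp11a1, the enzyme that commits cholesterol to steroid synthesis, was measured by 3 features. The pair shown here crosses an exon junction each, since 60 bases of RNA span 471 and 538 bases of the genome (chr9:57874074-57874544 and chr9:57873365-57873902, mm9, plus strand), and the pair carries the lower values described below.
Cyp11a1 feature 1: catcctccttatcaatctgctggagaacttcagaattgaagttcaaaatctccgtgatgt
Cyp11a1 feature 2: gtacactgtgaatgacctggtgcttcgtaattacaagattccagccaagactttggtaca
Feature 1 read 6418, 5134 and 5733 in the knockouts, against 7422, 5901 and 7776 in WT. The knockouts were lower on both slides, by differences of -0.21 on slide 1 and -0.34 on slide 2, and only knockout replicate 1 exceeded the lowest WT array. The difference was -0.25 (SE 0.10, 95% interval -0.50 to -0.0001), with an unadjusted p of 0.05 and an adjusted p of 0.21 in limma. It was -0.35 without WT replicate 2 (adjusted p = 0.074) and -0.17 without WT replicate 3. With the mean of the 3 features, the dim one described next included, it was -0.83 (adjusted p = 0.050). Feature 2 read 6552, 5166 and 5779 in the knockouts, against 7547, 5647 and 7018 in WT, with a difference of -0.17.

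The third Cyp11a1 feature (chr9:57869600-57869659, plus strand) lies in 1 unbroken stretch of the genome and was dim. It read 9.5, 23.9 and 18.4 in the knockouts and was well above background on none of those 3 arrays, against 40.7, 152 and 54.2 in WT, where it was well above background on all 3. This feature entered the test only through WT, so its adjusted p over features (0.12 in limma) does not stand apart from that choice. With the knockouts set to the lowest signal well above background where they lay under it, their mean was 2.13-fold below that of WT. The WT arrays alone differed among themselves by 1.93 on the log2 scale at this feature.

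Of the 3-beta-hydroxysteroid dehydrogenases, Hsd3b1 is the main form of gonads and adrenal in the mouse and Hsd3b6 is found in adult Leydig cells. Hsd3b1 (chr3:98656330-98656389, minus strand) read 27410, 18233 and 19988 in the knockouts, against 22646, 21381 and 23877 in WT. Here the spread lay in the knockouts, which held both the highest and the lowest array. The difference was -0.04 (95% interval -0.35 to 0.27, adjusted p = 0.89 in limma). Leaving out knockout replicate 1 gave -0.18, and leaving out knockout replicate 2 gave 0.06.

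Hsd3b6 (chr3:98610436-98610495, minus strand) read 1365, 1758 and 1512 in the knockouts, against 1128, 998 and 1806 in WT. WT replicate 3 lay close to the highest knockout, while the other two WT arrays were below all knockouts. The difference was 0.31 (95% interval -0.22 to 0.85, adjusted p = 0.44 in limma), 0.54 on slide 1 and -0.15 on slide 2. It was 0.16 without WT replicate 2, 0.19 without knockout replicate 2 and 0.54 without WT replicate 3.

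The gene family is closely related in sequence, so the features of its other members were set beside Hsd3b6. Of 55 pairs of features compared without gaps, the closest was the Hsd3b6 feature with the dimmer of 2 tested Hsd3b2 features (chr3:98516103-98516162, minus strand), with 31 of 39 overlapping bases identical. The 2 sequences are shown because they share the most bases.
Hsd3b6: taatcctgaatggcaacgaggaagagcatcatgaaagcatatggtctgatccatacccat
Hsd3b2 feature 2: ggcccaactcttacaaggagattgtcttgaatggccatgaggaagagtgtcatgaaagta
That Hsd3b2 feature did not follow Hsd3b6 over the arrays: it read 105, 77.0 and 89.6 in the knockouts, against 84.0, 101 and 126 in WT. The brighter Hsd3b2 feature (chr3:98515099-98515158) read 3266, 4890 and 4001 in the knockouts, against 2879, 2472 and 4986 in WT. Hsd3b5 (chr3:98422848-98422907) read 228, 292 and 268 in the knockouts, against 175, 168 and 302 in WT. After each feature was centred on its own mean over the 6 arrays, Hsd3b5 lay on average 0.04 and the brighter Hsd3b2 feature 0.07 from Hsd3b6 on the log2 scale, against 0.38 for Hsd3b1. Their differences between genotypes were 0.37 (adjusted p over features = 0.39 in limma) and 0.32 (0.55). The bright Hsd3b2 feature and the Hsd3b5 feature share 22 of 57 and 22 of 55 overlapping bases with that of Hsd3b6 at best. Whether these features read 1 transcript or several was not tested. Both Hsd3b3 features were well above background on 0 arrays of either genotype.

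**Figure D2:**
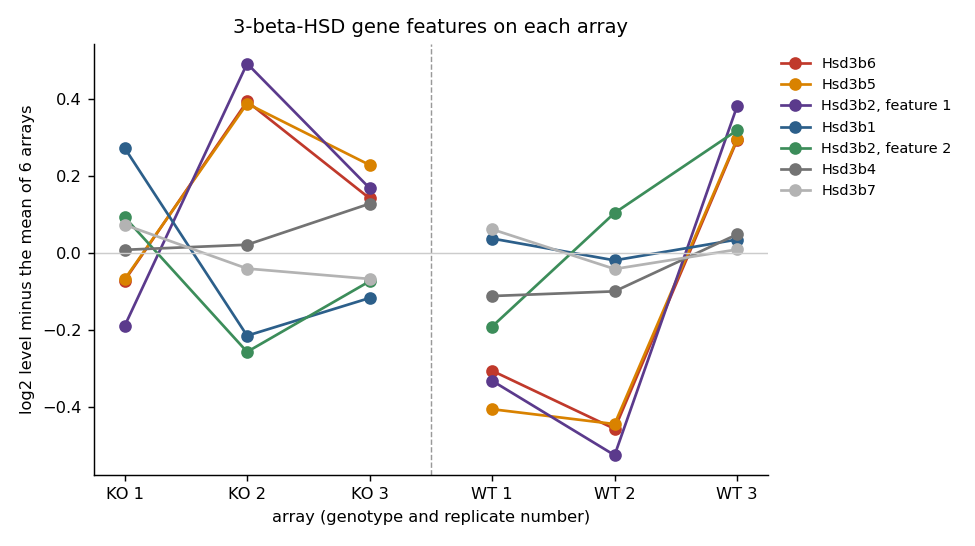
Scaled log2 level of each tested 3-beta-HSD feature minus its own mean over the 6 arrays (y axis), with knockout arrays left of WT arrays; lines join the points of a feature within a genotype and imply no order. Hsd3b6, Hsd3b5 and the brighter Hsd3b2 feature (feature 1) were highest on knockout replicate 2 and WT replicate 3 and lowest on WT replicate 2, a pattern that Hsd3b1 did not share.

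Cyp17a1, which makes androgen precursors through its hydroxylase and lyase steps, was read by 1 bright feature. It crosses an exon junction (chr19:46742594-46743207, minus strand) and is shown as the one whose group means lay closest.
Cyp17a1: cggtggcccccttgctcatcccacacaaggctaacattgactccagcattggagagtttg
It read 20826, 21604 and 21567 in the knockouts, against 22786, 18557 and 23731 in WT. The knockouts lay inside the WT range. The difference was 0.02 (SE 0.09, adjusted p = 0.93 in limma), and the 95% interval of -0.20 to 0.23 runs from 0.873-fold to 1.17-fold. The 3 tested genes whose centred levels over the 6 arrays were nearest to those of Cyp17a1 were Abhd17a, Spaca9 and Mtss1, each within a mean of 0.02 on the log2 scale, among 15904 genes with a symbol.

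Hsd17b3, which makes testosterone from androstenedione, had knockout values that were close together and WT values that were not. Its feature crosses an exon junction (chr13:64159943-64160741, minus strand).
Hsd17b3: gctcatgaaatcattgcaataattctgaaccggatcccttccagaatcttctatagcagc
It read 1850, 1816 and 1888 in the knockouts, against 1899, 1410 and 1254 in WT. WT replicate 1 was level with the knockouts and the other two WT arrays were below them. The difference was 0.34 (95% interval -0.07 to 0.74, adjusted p = 0.28 in limma), 0.16 on slide 1 and 0.69 on slide 2. It was 0.52 without WT replicate 1 and 0.18 without WT replicate 3.

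Nr5a1, the gene of SF-1, had the smallest pooled within-genotype SD of the 9 genes at its brighter feature. Its brighter feature (chr2:38549021-38549080, minus strand) read 255, 248 and 258 in the knockouts, against 271, 261 and 314 in WT. All knockouts were below all WT arrays, by a small margin. The difference was -0.12 (SE 0.06, 95% interval -0.25 to 0.02, adjusted p = 0.27 in limma). It was -0.07 without WT replicate 3, -0.03 with normexp background correction and -0.07 with the mean of both features. The other feature (chr2:38556959-38557018, minus strand) read 40.6, 36.4 and 45.1 in the knockouts, against 38.6, 52.4 and 37.5 in WT, and its difference was -0.03. The SF-1 half-site, searched as AAGGTCA on either strand, was found in none of 8 RefSeq promoters of 7 of the 10 genes, from 250 bases before to 50 after the start (GRCm38.p6), and in 4.72% of all 32851 promoters in that table. Star, Cyp17a1 and Nr5a1 were not among the 7 genes searched. At a share of 4.72%, 8 promoters are too few for finding none to show a lack of the site. The letters may lie outside this window, and other forms of the half-site were not searched.

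**Figure D3:**
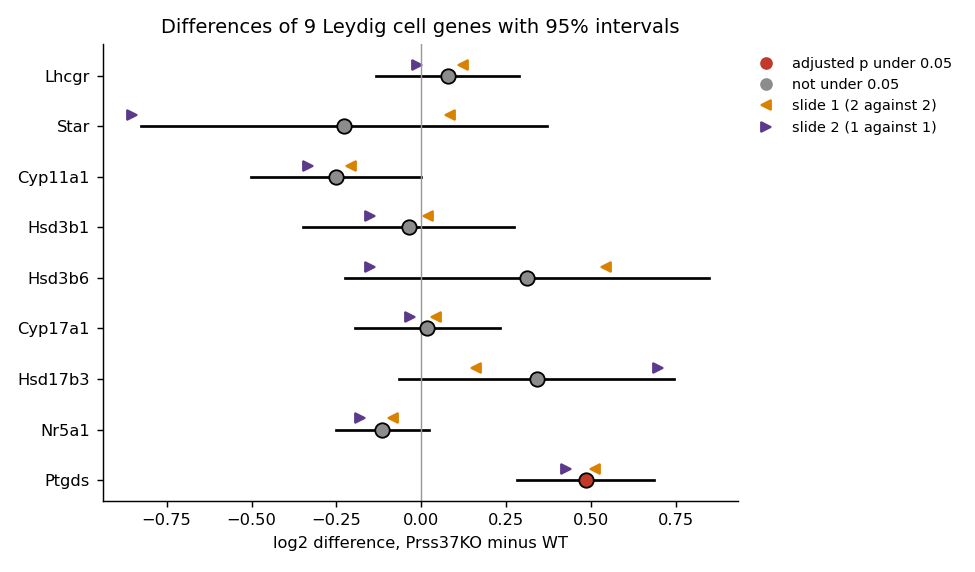
Log2 difference (Prss37KO minus WT, x axis) of each of the 9 genes with its 95% interval, and the difference within slide 1 (2 against 2 arrays) and slide 2 (1 against 1). Ptgds alone passed the adjusted threshold, and 5 of the 9 genes (Star, Hsd3b6, Cyp17a1, Hsd3b1 and Lhcgr) had differences of opposite sign on the 2 slides.

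Ptgds was the gene that passed. Its feature crosses an exon junction (chr2:25322842-25323373, minus strand, 532 bases of the genome).
Ptgds: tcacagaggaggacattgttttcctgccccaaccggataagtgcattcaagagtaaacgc
It read 50403, 50594 and 49715 in the knockouts, against 39372, 31731 and 39797 in WT. The knockout arrays were nearly equal and all lay above all WT arrays, of which replicate 2 was the lowest. Ptgds was 1.40-fold higher in the knockouts (log2 difference 0.48, SE 0.08, 95% interval 0.28 to 0.68, adjusted p = 0.047 in limma). The difference was similar within slides, 0.51 on slide 1 and 0.43 on slide 2.

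The call for Ptgds lay close to the threshold. With the slide in the model as a block, the adjusted p became 0.072 at the same difference, and it was 0.054 with median centring. It passed under 7 of 14 other settings, with an adjusted p between 0.016 and 0.18 and a difference between 0.46 and 0.54. With single arrays left out it passed only without WT replicate 2 (difference 0.40, adjusted p = 0.038), and its lowest and highest differences were 0.40 and 0.54. The 3 genes whose centred levels lay nearest to those of Ptgds over the 6 arrays were Cttnbp2, Fam227b and Vac14, with mean absolute differences of 0.05, 0.06 and 0.06.

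**Figure D4:**
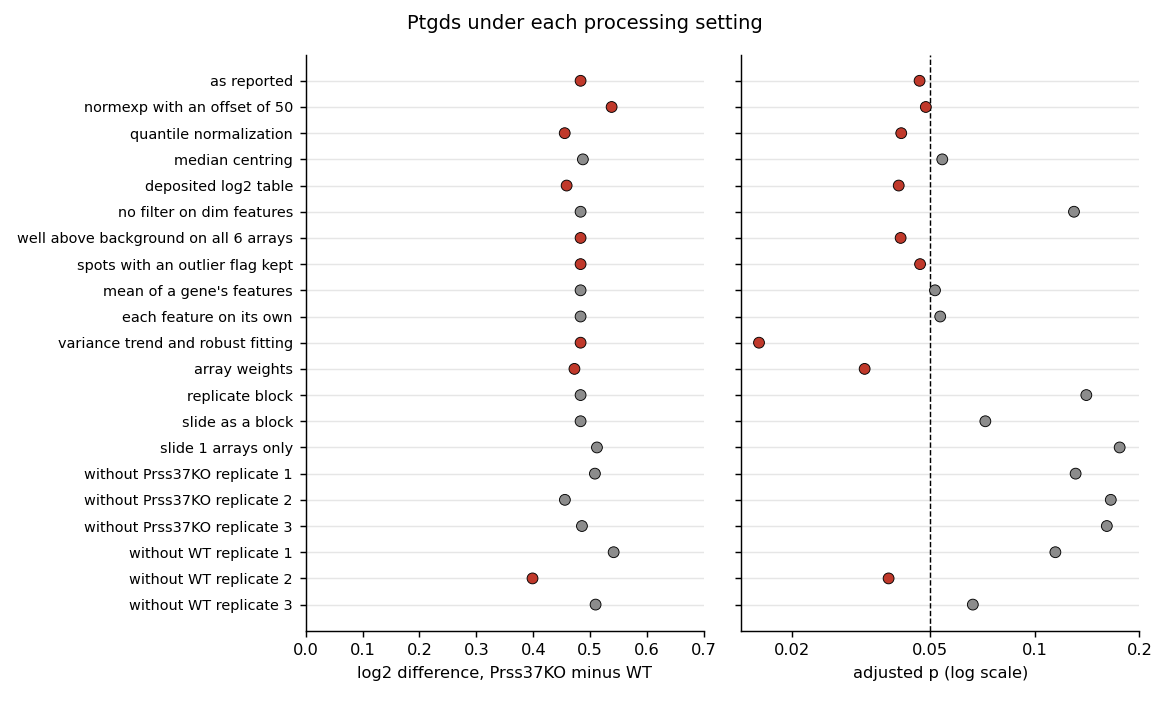
Log2 difference (left, Prss37KO minus WT) and adjusted p (right, log scale, dashed line at 0.05) of Ptgds as reported and under each other setting; red points are under 0.05. The difference stayed between 0.40 and 0.54, while the adjusted p lay on either side of the line.

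Ptgds lies on chromosome 2, where 79 of 1449 tested genes were called (5.45%), against 386 of 17160 genes placed elsewhere (2.25%). Within 5 Mb of the Ptgds feature 6 of 162 genes were called (3.70%), Ptgds itself among them. Ptgds is transcribed outside Leydig cells as well, in the epididymis among other tissues. Of 26 epididymis markers listed, 25 were on the array and 12 were tested. The defining markers Lcn5, Lcn8, Crisp1, Adam7 and Gpx5 were well above background on 0 arrays of either genotype. The summed level of the 12 tested markers, in multiples of the array's 75th percentile, was 92.3 to 101 in the knockouts, against 87.4 to 94.8 in WT. The features for Cst8 and Defb19 held 97.9% of it, and the other 10 summed to 1.85 to 2.44 in the knockouts, against 1.78 to 1.87 in WT. The median difference of the 12 was 0.17 with 8 above 0 and 0 called. It was 0.05 without WT replicate 1 and 0.03 without the filter on dim features. Rnase10 had 0.24 (adjusted p = 0.10 in limma) and Cuzd1 0.29 (0.11). The part of these tissues in the Ptgds difference was not tested.

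Insl3 itself could be read only jointly with Jak3, a kinase gene of cytokine signalling that is its neighbour on chromosome 8. The feature nearer the Jak3-only feature (chr8:74214085-74214144, mm9, plus strand) is shown because it carries the larger difference.
Jak3/Insl3 feature 1: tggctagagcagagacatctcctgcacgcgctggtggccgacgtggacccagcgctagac
It read 107707, 111536 and 108140 in the knockouts, against 75163, 63351 and 93185 in WT. All knockouts were above all WT arrays. The difference was 0.55 (SE 0.12, adjusted p over features = 0.073 in limma), 0.66 on slide 1 and 0.32 on slide 2. The second feature (chr8:74214308-74214367, plus strand) read 244909, 267973 and 250667 in the knockouts, against 224113, 178611 and 234643 in WT. It also showed no overlap, with a difference of 0.30 (SE 0.10, adjusted p over features = 0.16). A feature that lists Jak3 alone (chr8:74210826-74211151) read 449, 399 and 432 in the knockouts, against 333, 337 and 518 in WT, with a difference of 0.17 (adjusted p over features = 0.56) and overlapping groups. Whether the joint features read Insl3 or Jak3 cannot be told apart from their annotation.

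Under 12 other settings the difference of feature 1 lay between 0.51 and 0.66 and passed 2 times (variance trend with robust fitting, 0.033, and array weights, 0.037). With single arrays left out it passed 1 of 6 times, without WT replicate 3 (difference 0.66, adjusted p = 0.049). Across the 6 the difference ran from 0.44 to 0.66 and the adjusted p from 0.049 to 0.22. The second feature passed under none of the 12 settings and with none of the 6 single arrays left out. Over the 12 settings it had differences between 0.21 and 0.35 and an adjusted p between 0.10 and 0.31. Among the relaxin family genes and receptors, 5 of 8 were tested and 0 were called. The relaxin family genes Insl5 (difference 0.34, adjusted p = 0.068) and Rln3 (0.50, 0.16) were above 0, and neither passed the adjusted threshold.

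The genes differed in how much they varied between animals of one genotype. The pooled within-genotype SD of the log2 level was 0.36 for Star, 0.33 for Hsd3b6 and 0.24 for Hsd17b3, against a median of 0.08 over all tested genes. These values stood at the 96.3rd, 95.1st and 90.9th percentile of all genes. Nr5a1, at 0.07, stood at the 39.4th. The WT SD exceeded the knockout SD for 8 of 9 genes, Hsd3b1 being the exception, and for 68.1% of all genes. WT replicate 2 was the lowest of the 6 arrays for 5 of 9 genes (Star, Cyp17a1, Hsd3b6, Lhcgr and Ptgds), against 16.7% of all genes, and for both Jak3/Insl3 features. It was the highest for none of the 9. The estimated differences of the 9 genes had both signs, Ptgds alone passed the adjusted threshold, and 5 of the 9 shared their lowest array.

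The wider pathway was read from lists of genes by role, none of which had more than 1 call. Of 20 genes of luteinizing hormone and cyclic AMP signalling, 17 were tested, 11 were above 0, and the median was 0.05. Pde4b, a phosphodiesterase that breaks down cyclic AMP, read 1472, 1388 and 1444 in the knockouts, against 1182, 1252 and 1289 in WT (difference 0.24, adjusted p = 0.053 in limma). The brightest of its tested features stood for the gene, while the dimmest tested one had a difference of -0.11. Crem, a cyclic AMP-responsive transcription factor gene used mainly by spermatids, had 0.12 (adjusted p = 0.16).

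Cholesterol supply was represented by 18 tested genes with 13 above 0, 0 called and a median of 0.05. Npc2, which carries cholesterol out of lysosomes, had 0.12 (adjusted p = 0.15 in limma), and Acbd3, a Golgi protein that takes part in cholesterol transport to mitochondria, had 0.15 (0.14). Of 6 electron transfer genes 5 were below 0, with a median of -0.05. Por, the reductase that feeds microsomal P450 enzymes such as Cyp17a1, read 4857, 4572 and 4365 in the knockouts, against 5201, 4807 and 6033 in WT (difference -0.18, adjusted p = 0.19). Cyb5a, which favours the lyase step of Cyp17a1, had -0.13 (0.16). After scaling, all knockouts were below all WT arrays for both genes.

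Of 29 other steroid enzymes, 20 were tested, 12 were above 0 and 0 were called. Hsd17b1, an enzyme of estradiol synthesis, read 105, 78.8 and 87.9 in the knockouts, against 55.9, 68.2 and 51.8 in WT, a difference of 0.66 (adjusted p = 0.069 in limma). Srd5a2, which makes dihydrotestosterone, read 44.0, 53.5 and 52.4 in the knockouts, against 79.3, 66.4 and 98.0 in WT, a difference of -0.66 (adjusted p = 0.073). Groups did not overlap for either gene, and both signals were low. Of 5 adrenal markers on the array, Cyp11b2 and Cyp21a1 were well above background on 0 arrays and Akr1b7 on 1, while Mc2r and Mrap were so on all 6.

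Among regulators of Leydig cell genes 25 of 30 were tested, 13 were above 0 and 12 below, with a median of 0.004. Cebpb, a transcription factor gene whose product acts on the Star promoter among many others, fell in the knockouts and was the single call. It read 347, 292 and 308 in the knockouts, against 556, 519 and 531 in WT, and all knockouts were below all WT arrays. The difference was -0.73 (SE 0.06, adjusted p = 0.018 in limma), -0.76 on slide 1 and -0.68 on slide 2. The dimmer Cebpb feature read 146, 150 and 186 in the knockouts, against 150, 176 and 158 in WT, with a difference of 0.02 (adjusted p over features = 0.93), so the 2 features disagreed. The call held under 10 of 14 other settings (adjusted p from 0.0051 to 0.11), and with 3 of 6 single arrays left out. It was lost with the mean of both features (difference -0.35, adjusted p = 0.061). Cebpb also lies on chromosome 2 (chr2:167515847-167515905), far from Ptgds.

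Other Leydig cell markers (25 of 27 tested, 14 above 0, median 0.04) and genes of prostaglandin synthesis and signalling (17 of 23 tested, 8 above 0, median -0.02) had 0 calls. The remaining 3 genes named from these lists did not pass either. Hpgds, the hematopoietic prostaglandin D synthase gene, read 30.0, 61.0 and 47.1 in the knockouts, against 30.3, 7.5 and 10.8 in WT, where it was well above background on none of the arrays. Hpgds entered the test only through the knockouts, and the groups overlapped (adjusted p = 0.14 in limma). With the WT arrays set to the lowest signal well above background where they lay under it, the knockout mean was 1.42-fold above theirs. Cyp2a4, a steroid 15-alpha-hydroxylase gene, read 31.9, 32.3 and 57.5 in the knockouts, against 101, 69.0 and 110 in WT (difference -1.20, adjusted p = 0.076). Its other 2 features were not well above background. Tbxa2r, the thromboxane receptor gene, had -0.32 (adjusted p = 0.14).

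**Figure D5:**
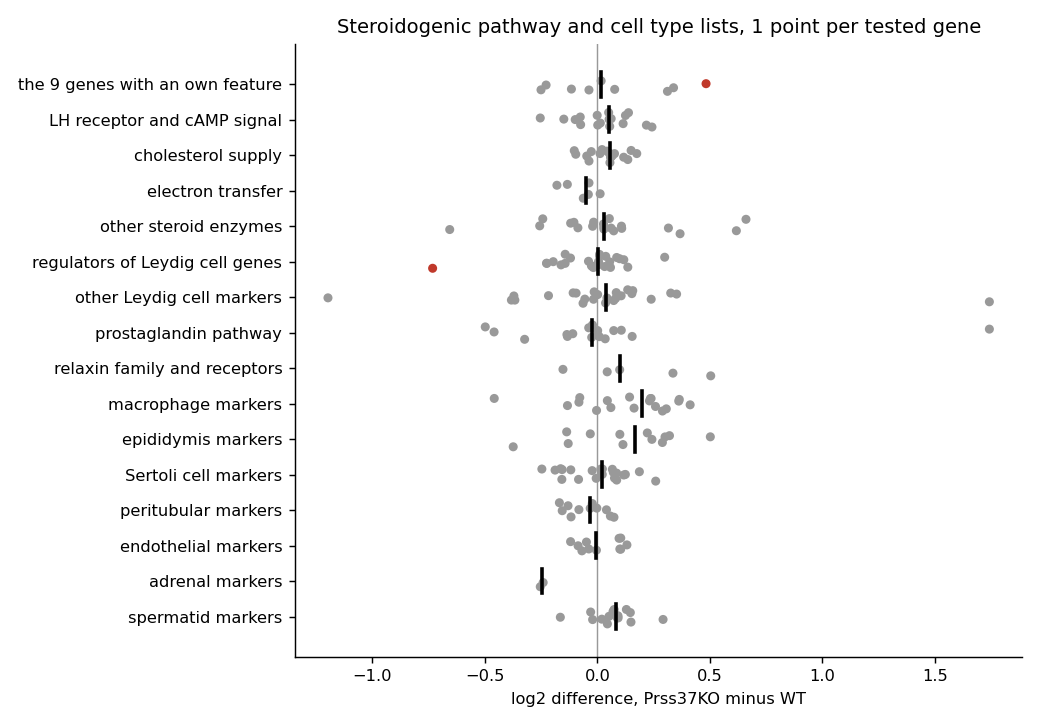
Log2 difference (Prss37KO minus WT, x axis) of every tested gene of the pathway and cell type lists, with the list median as a black bar and genes at an adjusted p under 0.05 in red. Ptgds and Cebpb are the red points, and Hpgds, at the far right in 2 lists, is a fitted value whose WT signals were not well above background.

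Markers of other cells of the testis were read beside these genes. Of 18 tested macrophage markers 13 were above 0, with a median of 0.20 and 0 called. The median was 0.11 without WT replicate 2 and 0.13 without knockout replicate 3. Their summed level was 82.6 to 104 in the knockouts, against 87.6 to 104 in WT, but the Aif1 feature (difference -0.08) held 71.6% of it. The other 17 summed to 28.1 to 30.7 in the knockouts, against 22.3 to 26.5 in WT, without overlap. Cd163 had 0.36 (adjusted p = 0.072 in limma) and Apoe 0.29 (0.093). Sertoli markers (21 tested, 12 above 0, median 0.02, and -0.01 on slide 1 alone) summed to 210 to 214 in the knockouts, against 201 to 205 in WT. The features for Clu and Cst9 held 49.0% of that sum. The other 19 summed to 106.0 to 109.2 in the knockouts, against 101.2 to 106.3 in WT, with overlap. Among the Sertoli markers Shbg had -0.25 (adjusted p = 0.077) and the androgen-responsive gene Rhox5 0.26 (0.060). Peritubular, endothelial and spermatid markers had medians of -0.03, -0.004 and 0.08, and 0 calls. The genes of smallest p in these lists were Acta2 (-0.17, adjusted p = 0.13) and Lmod1 (-0.13, 0.26), Cldn5 (0.10, 0.25) and Egfl7 (-0.12, 0.33), and Odf1 (0.29, 0.13) and Spaca1 (0.15, 0.15). The 2 tested adrenal markers, Mc2r (-0.25, 0.61) and Mrap (-0.24, 0.42), had overlapping groups. The part of these cells in the Ptgds, Cebpb and Jak3/Insl3 differences was not tested.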

How the data were processed

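Per the file headers, the deposited scanner files hold spot intensity values from Agilent Feature Extraction 10.7.3.1 (10.7 per the submitters' processing notes), whose processed signal is already corrected for background and detrended within the array; other columns used, such as spot flags, are also as given per the file headers. A deposited table of log2 values, whose making is not stated in the sources used here, served as an alternative. Control spots and flagged spots (86 to 159 per array) were left out. Between 69.2% and 71.4% of spots per array were well above background and 0 were saturated. Precision is limited by how few arrays there are.

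Processed signals were put on the log2 scale, the 75th percentile of each array was subtracted, and spots of one feature were averaged. Features entered the test if, leaving flagged spots aside, they stood well above background throughout at least 1 genotype and had at least 2 values in each (28301 of 41174). The brightest feature stood for a gene. Names came from unversioned accessions in a RefSeq table (GRCm38.p6, 27668 features), current symbols (5589), synonyms (471) or the file (7446). Positions are those of the scanner files (mm9), and exon or UTR parts were not assigned. Synonyms that are now other genes' names were not taken. Feature sequences are from the scanner files and promoters from RefSeq.

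Prss37KO was compared with WT with lmFit and eBayes of limma 3.58.1 (R 4.3.3) over all 18975 genes, with Benjamini-Hochberg adjustment and a threshold of 0.05. Values "over features" come from the same fit on all 28301 features. Where a genotype had no array well above background, the fold is a ratio of means with a floor, and no bound on the true difference. The brighter mean was set against the mean of the dim arrays. Each dim array took the higher of the feature's own signal and the lowest signal well above background. The text names the 10 genes with every feature, Prss37, up to 4 called genes of each list or otherwise the 2 of smallest p, and the 3 nearest genes by mean absolute difference for Ptgds and Cyp17a1. The related 3-beta-HSD features were added after their values were seen. The genes, lists and tests were chosen with earlier results of these data known, so list counts carry no test. The fit was tested on simulated data, where it called 131 genes. It called 28% of 50 genes with a simulated log2 difference of 0.3 and 68% of 50 with 0.5. Differences of this size can thus be missed. Alternatives covered background correction, normalization, filters, features per gene, variance model, array weights, blocks, slide 1 alone, each array left out and the threshold. Those for the Jak3/Insl3 features and Cebpb were added after seeing the data. Same-numbered replicates did not deviate together (correlation of deviations -0.03, -0.03 and 0.16), so the numbers were not taken to pair animals.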

Additional observations from a re-analysis of the deposited data

How the results depend on the processing

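The counts over all genes depended on the setting. The 230 higher and 237 lower genes became 2 and 6 without a filter on dim features, 125 and 150 when features of a gene were averaged, 691 and 579 under robust fitting with a variance trend, and 807 and 664 with array weights. They became 30 and 49 with slide as block, 6 and 21 on slide 1 alone, where fewer arrays enter, and 959 and 908 at an adjusted p under 0.1. With each feature on its own, 132 were higher. Leaving out single arrays gave 0 to 442 higher and 2 to 337 lower. With the replicate block, 0 genes were higher and 2 lower, and Ptgds had an adjusted p of 0.14 in limma. The replicate numbers were not taken to pair animals, though a pairing was not excluded.

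Of the 9 genes, the count called higher, 1 as reported, was 0 with median centring, no filter, the mean of features, each feature on its own, the replicate block, the slide block and slide 1 alone, and 0 to 1 with single arrays left out. The sign turned for Star on slide 1 alone (0.085), for Cyp17a1 with quantile normalization (-0.0072) and the deposited table (-0.0062), and for Hsd3b1 with normexp (0.018) and on slide 1 alone (0.020). With single arrays left out, Cyp17a1 ranged from -0.070 to 0.065, Hsd3b1 from -0.18 to 0.060 and Lhcgr from -0.018 to 0.13. The causes were not tested beyond the fewer arrays or features that a setting keeps. Cyp11a1, Hsd3b6, Hsd17b3, Nr5a1 and Ptgds kept their sign under all 20 other settings run. Signals of Lhcgr and Nr5a1 are low, and the dim Cyp11a1 feature, Hpgds and Cyp2a4 lie near background, which limits their precision.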
